A study of Mus musculus with 2 samples.

Results

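Absorptive enterocytes of the normal mouse duodenum were examined in a single-cell library of 3 pooled mice. A barcode was taken as one of these cells when Fabp1, Fabp2, Apoa1, Apoa4 and Rbp2 together made up at least 2% of its unique molecular identifiers (UMIs, which tag single captured transcripts). It also had to hold at least 500 UMIs and 250 genes, and no more than 25% of its UMIs could be mitochondrial (13 genes). Of 9950 barcodes in the normal library, 3252 passed the filter and 533 of these were chosen by the 5 genes, 16.4% (Clopper-Pearson 95% interval 15.1 to 17.7). The study comprised 2 droplet libraries of the 3′ kind. The normal library (WT) came from duodenum of Lkb1+/+;Myh11-Cre/ERT2 mice, which carry the tamoxifen-inducible Cre of smooth muscle but an intact Lkb1. The other (Lkb1_Het) came from polyps of Lkb1flox/+;Myh11-Cre/ERT2 mice, in which 1 Lkb1 allele is floxed, although the source label of both samples names duodenum tissues. Both libraries pool 3 mice whose cells cannot be told apart, so there is no replicate error and no test was run. Intervals are 95%, cover counting error only, and molecules counted in 1 library are not replicates. Coordinates are of mm10, with gene limits from GENCODE. Ages and the tamoxifen schedule are not given in the sources used here.

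Absorptive enterocytes line the villus and take up the products of digestion. Fats are carried inside the cell by fatty acid binding proteins, rebuilt into triglyceride and packed with apolipoproteins into chylomicrons, while brush border enzymes finish the digestion of sugars and peptides at the microvillus surface and transporters carry the products in. Each cell is born in the crypt and moves along the villus to its tip, where it is shed, and its genes shift on the way. Antimicrobial genes are known for the lower villus, sugar and peptide transport for the middle, and apolipoproteins such as Apoa4 for the upper villus.

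The chosen barcodes fell into 2 groups by depth. A deep group of 194 barcodes held at least 5000 UMIs, with a median of 25540.5 UMIs and 3732 genes, and accounted for 94.1% of all UMIs of the chosen barcodes. A shallow group of 313 held under 1500 UMIs, with a median of 689 UMIs and 341 genes. Only 26 lay between. The median over all 533 was 997 UMIs, against 2565 UMIs in the 2719 other barcodes that passed the filter. Levels here are summed UMIs of a set over all UMIs of that set, in counts per 1000000 UMIs (CPM), and so rest almost wholly on the deep group. The limits of 5000 and 1500 UMIs were drawn after the depths had been seen.

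**Figure D1:**
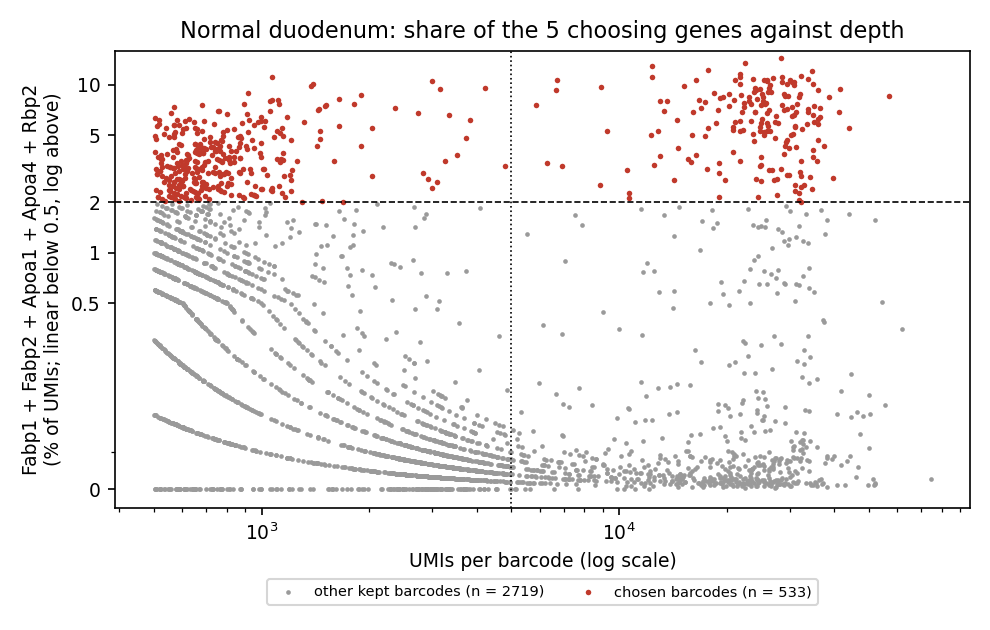
Each point is 1 of the 3252 barcodes of the normal library that passed the filter, with its UMIs on a log x axis and the share of UMIs from the 5 choosing genes on the y axis (linear below 0.5, log above); the dashed line is the 2% threshold and the dotted line marks 5000 UMIs. The 533 chosen barcodes (red) form a shallow cloud of 313 under 1500 UMIs and a deep cloud of 194 at 5000 UMIs or more.

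The deep group carried the identity its name implies. Epcam, the epithelial adhesion molecule, had a UMI in 194 of 194 deep barcodes. Sis (sucrase-isomaltase of the brush border; chromosome 3, 72888557 to 72967863), the 1 listed marker that took no part in the choice, stood at 1208 CPM (1177 to 1239) there and had a UMI in 99.5% of them. In T cells of the same library, which should lack it, Sis stood at 23.8 CPM with a UMI in 7.11% of 689 barcodes, whose median depth was 3103 UMIs. After each barcode was thinned to 1000 UMIs, Sis was seen in 72.2% (65.3 to 78.3) of the 194 deep barcodes, in 9.24% (6.82 to 12.2) of 487 other epithelial barcodes and in 2.71% (1.62 to 4.26) of 663 T cells. The thinning left out 3 epithelial barcodes and 26 T cells that were too shallow. Markers of other cells were low in the deep group. The largest sums were those of acinar markers, 1525 CPM, and plasma cell markers, 615 CPM. Goblet markers summed to 160.1 CPM, Paneth markers to 121.1, crypt and cycling markers to 244, enteroendocrine markers to 30.5, gastric and Brunner gland markers to 219.6 and T-cell markers to 269.9. Lgr5 of crypt stem cells, Muc5ac of gastric surface cells and all 4 endothelial markers were at 0 in it. Only 2 deep barcodes held more than 1% of UMIs from the T-cell list.

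The shallow group matched the name less well. Epcam had a UMI in 106 of its 313 barcodes (33.9%) and Sis stood at 462 CPM. The 12 pancreatic acinar markers, genes of digestive enzymes that enterocytes do not make, took a median of 6.01% of UMIs per shallow barcode, against 0.140% in the deep group. Of the 313, 309 held more than 2% of acinar UMIs, and 192 held more than 1% from the plasma cell markers. The rRNA-repeat gene Gm42418 stood at 148494 CPM in the shallow and 3072 CPM in the deep group. The 1057 other barcodes under 1500 UMIs had acinar markers at a median of 5.89%, a level like that of the chosen shallow barcodes. The 5 enterocyte markers stood at 30230 CPM in the chosen and 4636 CPM in the other shallow barcodes, a gap that the choice itself sets, since 4 of the 5 are choosing genes. The part of free RNA in the shallow barcodes was not tested.

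**Figure D2:**
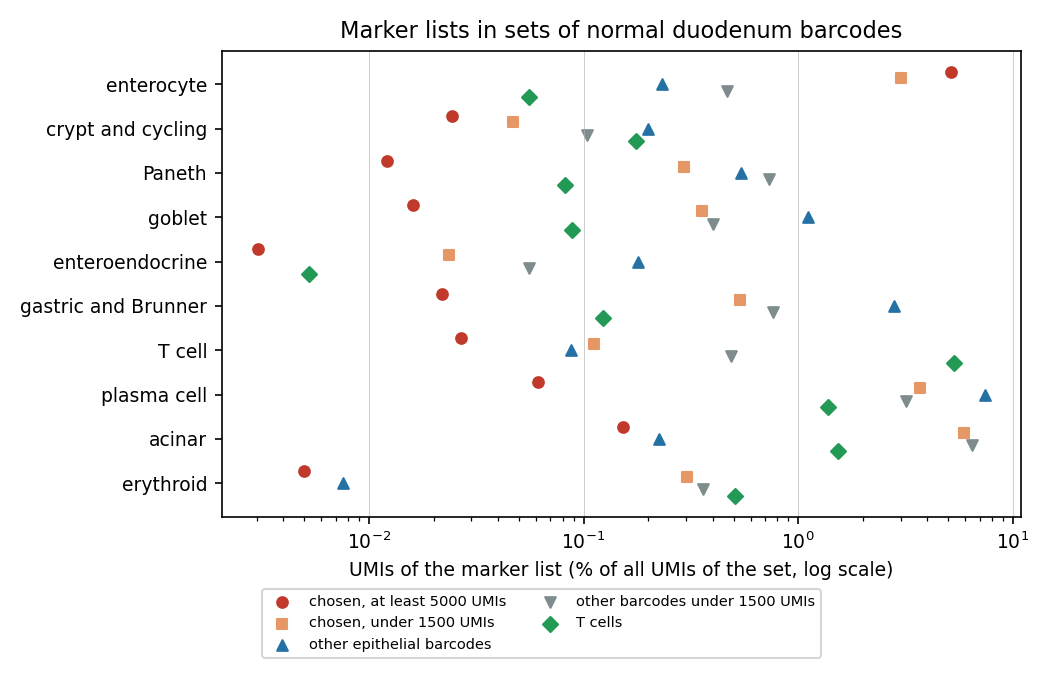
Summed UMIs of 10 marker lists, as a percent of all UMIs of each set on a log axis, in the deep and shallow chosen barcodes, the 490 other epithelial barcodes, the 1057 other barcodes under 1500 UMIs and the 689 T cells of the normal library. The deep chosen barcodes have the lowest shares of the 9 lists of other cells among the 5 sets, and the shallow chosen barcodes lie near the other shallow barcodes in acinar and erythroid markers; the enterocyte share is set by the choice, since 4 of its 5 genes are choosing genes.

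The 2% threshold lay among shallow barcodes: 28 of the 34 just inside it and 22 of the 31 just outside it held under 1500 UMIs. Just inside, 34 barcodes held 2.0% to 2.2% of UMIs from the 5 genes, with a median of 666.5 UMIs and a Sis UMI in 13 of them. Just outside, 31 barcodes held 1.8% to 2.0%, with a median of 717 UMIs and a Sis UMI in 11. In each of these bands 5 barcodes reached 5000 UMIs. Scrublet, which scores barcodes for the mixing of cells, marked 0 barcodes by its automatic threshold and so did not work as a caller here. The 85 barcodes with the highest scores, removed as an alternative, included 6 of the 533 chosen ones and 2 of the deep group. The 2 libraries shared 44 barcode sequences, 6 of them among the chosen barcodes, of which 3 also passed the filter in the polyp library. Without all shared sequences 527 of 3233 barcodes were chosen (16.3%), and 728 genes in place of 725 were called higher than in other epithelium.

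The 5 genes that chose the barcodes give a description and no finding. Fabp1 (chromosome 6, 71199827 to 71205023) and Fabp2 (chromosome 3, 122895072 to 122899506) encode the liver and intestinal fatty acid binding proteins. They stood at 22376 and 14559 CPM in the chosen barcodes, and at 209.7 and 165 CPM in T cells. Rbp2 (chromosome 9, 98486115 to 98509781) encodes the cellular retinol binding protein of enterocytes and stood at 16558 CPM. Apoa1 (chromosome 9, 46228580 to 46230466) and Apoa4 (chromosome 9, 46240696 to 46243459), apolipoproteins of the chylomicron surface, stood at 8262 and 1931 CPM. The chosen barcodes held 90.4% of all Fabp1 UMIs of the filtered library, 88.3% of Fabp2, 92.6% of Apoa1, 93.7% of Apoa4 and 88.9% of Rbp2, and also 81.3% of the UMIs of Sis, which did not choose them. Single deep barcodes spread widely, with Fabp1 between 0.111% and 5.98% of UMIs around a median of 2.06%. Apoa4 lay between 0% and 0.764% around a median of 0.163%.

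The bases before the start sites of 3 of these genes are shown because their promoters hold letters of a site for HNF4, a transcription factor of enterocytes. Promoters of all 5 genes were matched by symbol in RefSeq (build GRCm38.p6, the same assembly as mm10), and 200 bases before the RefSeq start were searched on both strands for the HNF4 letters CAAAGNNCA, for AGATAA, the letters of GATA factors, and for the box TATAAA. The printed bases leave out exons of the GENCODE annotation, all are on the plus strand, and capitals mark matches. The Apoa4 stretch ends where a GENCODE exon begins. The Rbp2 window lies within an intron of a longer GENCODE transcript, and a GATA and a TATA match overlap in it.
Apoa4 chr9:46240644-46240695: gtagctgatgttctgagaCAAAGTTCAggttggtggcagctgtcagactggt
Fabp2 chr3:122894872-122895071: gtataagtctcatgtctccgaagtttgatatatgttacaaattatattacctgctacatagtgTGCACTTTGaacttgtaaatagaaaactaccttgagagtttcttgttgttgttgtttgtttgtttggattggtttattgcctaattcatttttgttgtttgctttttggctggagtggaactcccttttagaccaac
Rbp2 chr9:98490337-98490536: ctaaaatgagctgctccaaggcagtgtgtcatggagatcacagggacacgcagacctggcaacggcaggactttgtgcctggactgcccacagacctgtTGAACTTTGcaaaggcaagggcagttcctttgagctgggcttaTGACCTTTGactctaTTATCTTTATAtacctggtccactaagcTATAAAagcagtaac
Read from the start site, the HNF4 letters lie at −182 to −174 in Apoa4 and at −137 to −129 in Fabp2. Rbp2 has them at −101 to −93 and again at −58 to −50. Fabp1 held only a TATA match and Apoa1 held none of the 3 motifs in this window. Among all 32817 promoters of the table, 4.36% held the HNF4 letters, 7.80% GATA and 9.96% TATA. Among the 743 promoters of genes that were called higher in enterocytes than in other epithelium 72 (9.69%) held the HNF4 letters, against 372 (3.85%) of the 9668 promoters of all genes counted there. The 5 choosing genes, higher by the choice itself, were not left out of these shares, so the matches printed above are counted in them. Corresponding shares were 7.27% against 4.57% for GATA and 10.8% against 5.16% for TATA. A match is a description of letters and shows no binding.

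The chosen barcodes were set against 490 other epithelial barcodes of the same library, which had a UMI of Epcam, none of Ptprc and under 2% of acinar UMIs, with a median of 18919.5 UMIs. By their markers these hold goblet, Paneth, enteroendocrine, crypt and gastric-type cells, and also plasma cells of the antibody-secreting kind. Plasma cell markers summed to 74061 CPM in this set, and 53 of its barcodes, with 11.4% of its UMIs, carried at least 17.7% of plasma UMIs and a median of 2 Epcam UMIs. The other 437 held at most 0.847% of plasma UMIs and a median of 24 Epcam UMIs. A gene was called when the end of the interval of its ratio nearest 1 lay past 2-fold, among genes with at least 50 UMIs in both sets together. Of 9522 genes, 725 were called higher (7.61%) and 1854 lower (19.5%). Because the 5 genes chose the barcodes and are themselves among the 725, these ratios describe the sets and test nothing. The median log2 ratio over all 9522 genes was −0.44, and relative to that median 1237 genes were higher and 1204 lower. Taking ratios relative to the median gene, or leaving the choosing and mitochondrial genes out of the total, could not turn the direction of a called gene. Both shifts are smaller than the 2-fold needed for a call. When barcodes were averaged instead of summed, 1 of the 212 listed genes called here (Zg16 of goblet cells) turned. Against the 437 barcodes alone, an alternative chosen after seeing the data, 618 genes were called higher and 1986 lower, 609 and 1735 of them the same genes. Calls of members that are named below and ended there are given beside them.

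Chylomicron and lipid genes were higher in enterocytes nearly throughout. Of 19 counted members of the list of 20, 18 were called higher and 1, Acsl3, lower, with a median log2 ratio of 2.59. Apoc2 and Apoc3, small apolipoproteins that set how fast the particle is cleared, stood at 1918 and 1023 CPM against 47.5 and 33.7 CPM in other epithelium. Their ratios were 40.3 (36.6 to 44.6) and 30.4 (27.1 to 34.2). Mttp, the protein that loads lipid onto apolipoprotein B, was 7.02-fold higher (6.56 to 7.53), at 804 against 114 CPM. Apob itself was 5.25-fold higher (4.76 to 5.80). The acyl-CoA synthetase Acsl5 was 11.0-fold and the acyltransferases Mogat2, Dgat2 and Dgat1, which rebuild triglyceride, 9.97-, 7.22- and 3.50-fold higher. Acsl3, of the same synthetase family as Acsl5, was lower, at 5.96 against 24.2 CPM. Cd36, a fatty acid receptor, was near absent in both sets (3.46 and 0.895 CPM). All 6 counted genes of sterol handling were called higher, with a median of 1.89, among them the cholesterol importer Npc1l1 (3.52-fold) and the exporters Abcg5 and Abcg8 (3.90- and 7.80-fold).

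Brush border enzymes followed the same direction. Of 17 counted hydrolases, 15 were called higher and 0 lower, with a median of 3.20. Sis was 9.39-fold (8.81 to 10.0), the phosphatase Alpi 7.67-fold (7.24 to 8.13) and the aminopeptidase Anpep 7.96-fold (7.40 to 8.57) above other epithelium. Lactase, encoded by Lct, stood at 37.1 against 0.783 CPM, a ratio of 47.4 (22.6 to 119.5) that rests on 7 UMIs in the comparator. Enteropeptidase, Tmprss15, which activates trypsinogen in the duodenum, stood at 9.62 against 0.336 CPM (28.7-fold, 9.26 to 144). Dpp4 and Enpp3, the pair not called, both had ratios of 2.26.

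Transport of sugars, amino acids and minerals was described by 4 lists. All 10 genes of sugar transport and fructose use were called higher (median 2.78): the sodium-glucose transporter Slc5a1 8.79-fold, the exit transporter Slc2a2 20.8-fold, the fructose transporter Slc2a5 8.10-fold and ketohexokinase Khk 5.10-fold. G6pc, glucose-6-phosphatase, had 0 UMIs in other epithelium and was at least 36.1-fold higher against a floor of 3 UMIs over that set. For amino acids and peptides 7 of 12 were called higher and 0 lower (median 2.24), led by the peptide transporter Slc15a1 (19.4-fold) and the neutral amino acid transporter Slc6a19 (18.5-fold), while Slc1a1 had a ratio of 0.480. For iron, 4 of 8 were called higher and Tfrc lower. The apical importer Slc11a2 was 7.89-fold, the exporter Slc40a1 (ferroportin) 6.20-fold and the ferroxidase Heph 4.64-fold higher, and ferritin heavy chain Fth1 stood at 35431 against 6665 CPM. Tfrc, the transferrin receptor of dividing and iron-poor cells, was 2.84-fold lower (2.46 to 3.29), and the ferric reductase Cybrd1 stood at only 6.54 CPM. For calcium, S100g (calbindin-D9k) was 19.3-fold higher (18.5 to 20.2), and Trpv6, the apical calcium channel, had no UMI in the chosen barcodes.

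Detoxifying enzymes were higher almost without exception. Of 23 genes, 22 were called higher and 0 lower, with a median of 2.88. Cyp1a1, Cyp3a11, Cyp3a25 and Cyp2b10, cytochromes P450 that oxidise food and drug compounds, were 55.7-, 32.0-, 37.2- and 34.0-fold higher, at 137, 143, 95.6 and 95.1 CPM. The glutathione transferase Gsta1 stood at 4135 against 469 CPM. Cyp2j6, at 2.29-fold, was not called. Cyp3a, Cyp2c, Ces2, Ugt2b, H2-Q and defensin genes have close copies, and how the counting split reads between copies is not given in the sources used here.

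The microvillus skeleton was higher as well (11 of 13 called higher, 0 lower, median 1.84), with the bundling proteins Espn and Vil1 16.6- and 4.15-fold and the intermicrovillar cadherins Cdhr2 and Cdhr5 6.71- and 4.64-fold above other epithelium. Krt19, a keratin of epithelium in general, had a ratio of 1.05. Junction genes had a median of 0.09. Cdh17 was called higher (2.29-fold, though not against the 437 barcodes low in plasma markers). Cldn2, the leaky claudin of crypts, was called lower (2.89 against 41.0 CPM), and Cldn7 and Cldn3 had ratios of 1.05 and 1.12. Of 18 transcription factors, Hnf4g (2.71-fold), Maf (3.27-fold) and the bile acid receptor Nr1h4 (2.73-fold, a call that ended against the 437 barcodes) were called higher and Cdx1 lower (26.9 against 70.2 CPM). Hnf4a and Gata4 had ratios of 1.13 (1.01 to 1.26) and 1.14 (0.982 to 1.33). Fatty acid oxidation had 7 of 14 called higher and 0 lower, such as Acaa2 (3.82-fold). Of 5 counted genes of vitamin A handling, Aldh1a1 and Rdh7, which oxidise retinoids, were 11.8- and 6.69-fold higher, and the plasma carrier Rbp4 had no UMI in the chosen barcodes against 5.82 CPM. The nucleoside transporter Slc28a1 (32.7-fold) and xanthine dehydrogenase Xdh (12.6-fold) were among 3 of 6 purine genes called higher. Of 7 genes listed for the distal intestine, the mucin Muc13 was called higher (917 against 415 CPM), though not against the 437 barcodes, and Naaa had a ratio of 1.11. Of the other 5, which had too few UMIs for a call, Fabp6, Slc10a2 and Osr2 stood at 0.192 CPM, 1 UMI each, and Fgf15 and Hoxb13 at 0 in the chosen barcodes.

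**Figure D3:**
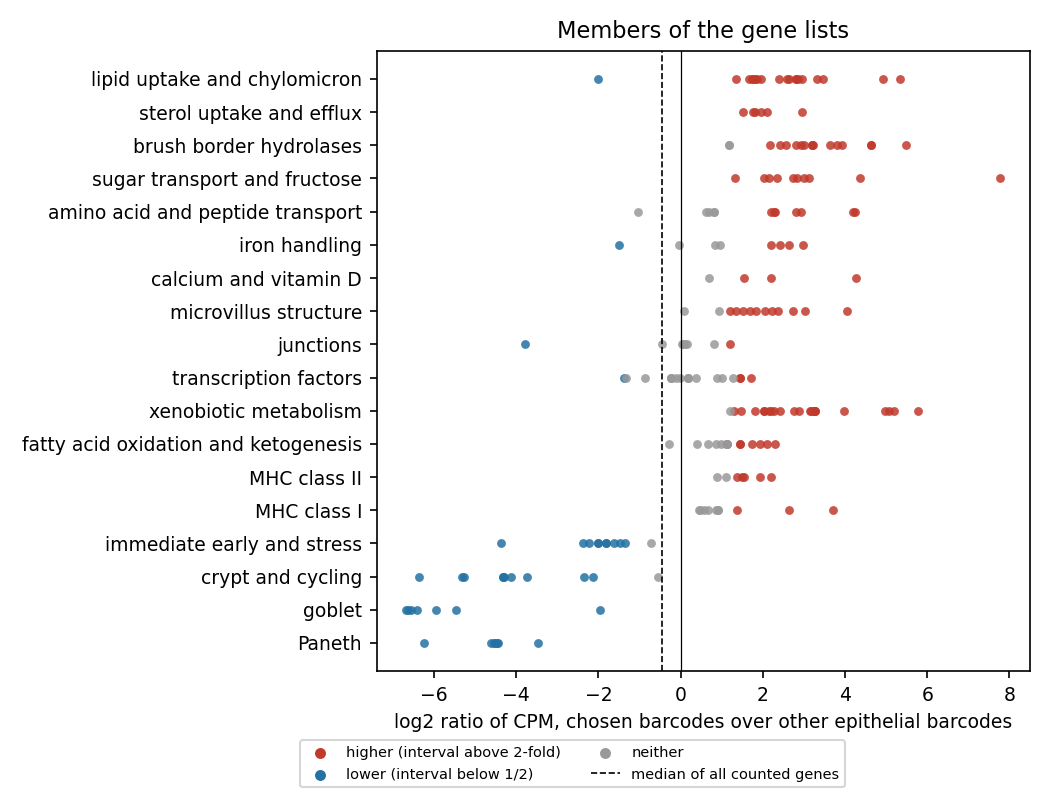
Each point is a gene of 1 of 18 lists with at least 50 UMIs, placed by its log2 ratio of CPM in the 533 chosen barcodes over the 490 other epithelial barcodes of the normal library; red and blue are genes called higher and lower, grey neither, and the dashed line is the median of all counted genes (−0.44). Absorptive lists lie mostly to the right and the immediate-early, crypt, goblet and Paneth lists to the left.

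Among called genes with a UMI in at least 10% of the barcodes of the higher set, ordered by whichever interval bound lay closer to 1, Leap2 led. It encodes a liver and gut peptide that blocks the ghrelin receptor, and stood at 271 against 2.80 CPM, a ratio of 96.9 (65.4 to 150.2). The other leading genes were Apoc2, Cyp1a1, Ifit1bl2 (71.2-fold), Apoc3, the inositol transporter Slc5a11 (67.5-fold), guanine deaminase Gda (31.5-fold), Cyp3a25, Cyp3a11 and Cyp2b10. At the other end stood Tff1 (97.8-fold lower, 84.5 to 114), Agr2, Gkn1, Tff3, Fcgbp, Gkn2 and Gkn3, known mainly for mucous cells. With them were Reg4, Chgb of endocrine cells and Olfm4 of the crypt. Goblet (0 of 7 higher, 7 lower), Paneth (0 and 7 of 7), enteroendocrine (0 and 8 of 8), gastric (0 and 7 of 7), plasma cell (0 and 4 of 5) and B-cell lists (0 and 2 of 2) describe what the comparator holds. Against the 437 barcodes low in plasma markers, 2 of 4 counted plasma genes were called higher and 0 lower. The 437 were picked for at most 1% of plasma UMIs, while no such limit was put on the chosen barcodes. Of the shallow chosen ones, 192 held more than 1%, so the choice bears on this direction. The acinar list had 4 of 11 called higher and 0 lower over all 533 barcodes, with 325 against 176 CPM for Cela1. Its UMIs were limited to under 2% in the comparator only. In deep barcodes its summed level was 1525 CPM against 1914 CPM in other epithelial barcodes of that depth. Crypt and cycling genes were called lower in 10 of 11, for example Stmn1 at 11.5 against 231 CPM, whereas Pcna had a ratio of 0.684.

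Immediate-early and heat-shock genes, which respond within minutes to stress including tissue digestion, were lower in enterocytes. Of 11, 10 were called lower and 0 higher, with a median of −1.82. Fos stood at 553 against 1956 CPM (3.54-fold lower, 3.40 to 3.68), Jun at 628 against 1925, Egr1 at 177 against 624 and Hspa1a at 154 against 618. The small heat-shock protein Hspb1 was 21.1-fold lower (13.7 to 34.2). Atf3, at a ratio of 0.607, was not called. T cells of the same library had Fos at 2487 CPM and Hspa1a at 1762 CPM.

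Genes of antigen presentation were present in enterocytes. Of 7 MHC class II genes, 5 were called higher than in other epithelium and 0 lower, with H2-Aa at 284 against 62.2 CPM (4.57-fold, 4.14 to 5.05). Cd74, the invariant chain, stood at 1382 against 748 CPM and was not called, but it was called higher against the 437 barcodes low in plasma markers. Macrophage markers summed to 1.23 CPM and B-cell markers to 1.23 CPM in the deep group, in which Cd74 stood at 1409 CPM. In T cells Cd74 was at 75.7 CPM. Of the class I list, 3 of 10 were called higher, H2-Q1, H2-Q2 and H2-T3, the last not against the 437 barcodes. Among antimicrobial genes Reg1 stood at 8556 against 697 CPM, Reg3b and Reg3g were 4.39- and 4.49-fold higher, and Dmbt1 was lower, at 321 against 856 CPM.

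Set against all 2719 other barcodes, which include 689 T cells and 1057 barcodes under 1500 UMIs, 1142 of 11018 genes were called higher (10.4%) and 2568 lower (23.3%). Relative to the median gene (log2 ratio −0.44) these counts became 1776 and 1930. Leap2, Apoc2 and Apoc3 led again, and Ptprc, Cd69 and Gzmk of lymphocytes were among the leading lower genes. Of the 725 genes higher than in other epithelium, 711 were called again in the 194 deep barcodes alone, set against the other epithelial barcodes of that depth, where 743 were called. This is no independent repeat, because both comparisons use nearly the same counts. The deep barcodes hold 94.1% of the UMIs of the chosen ones, and the 381 deep epithelial barcodes 8.65e+06 of 8.94e+06 UMIs.

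Position along the villus was approached through Apoa4, a gene of the upper villus. Over all 533 barcodes the split into 3 nearly equal groups by Apoa4 share, called tertiles here, separated depths: 197 barcodes had no Apoa4 UMI and formed the low tertile, with a median of 708 UMIs against 12580 in the 178 barcodes of the high tertile. High against low, 291 of 3995 counted genes (with at least 50 UMIs) were called higher (7.28%) and 114 lower (2.85%), here past 1.5-fold. The median log2 ratio was 0.32, relative to which 153 were higher and 186 lower. The lower side was led by Cela2a, Cpa1, Cela3b, Cel and Ctrb1, genes of pancreatic enzymes, and acinar markers took a median of 5.93% of UMIs in the low and 0.299% in the high tertile. Of 11 acinar genes, 11 were called lower here and 0 among the deep barcodes alone. Their part in the other differences of this split was not tested. The 10 leading higher genes included Apoc2, Prap1, Apoc3, Slc2a2 and Slc5a1.

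Within the 194 deep barcodes the tertiles had similar depths (medians of 27171, 26197 and 24860 UMIs) and similar acinar shares (0.146%, 0.140% and 0.128%). Their shares of the 5 choosing genes differed, with medians of 3.69%, 6.52% and 8.28% from low to high. The split thus also orders barcodes by the share that chose them, and the part of this in the differences below was not tested. Apoa4 made up at most 0.112% of UMIs in the low tertile (65 barcodes), 0.112% to 0.225% in the middle (64) and 0.235% to 0.764% in the high tertile (65). High against low, 176 of 4605 genes were called higher (3.82%) and 223 lower (4.84%), with a median log2 ratio over all genes of −0.03. This split was added after the depths had been seen. Of its 176 higher genes 99, and of its 223 lower genes 55, were also called in the split of all barcodes. Middle tertiles lay between the other tertiles for 173 of the 176 and for 216 of the 223. These genes were called for a gap between the outer tertiles, which by itself makes a middle level between them likely. The share over all 4605 genes was not computed. Of 62 listed genes called here, 0 turned direction when barcodes were averaged instead of summed. The scalings by the median gene and by the reduced total could not turn a call, since they shift ratios by less than 1.5-fold.

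Apolipoproteins and lipid genes were higher with Apoa4. Of 18 counted lipid genes 7 were called higher and 0 lower, with a median of 0.59. Apoc3 has its gene next to Apoa4, in a stretch of 14.9 kb on chromosome 9 (46228580 to 46243459) that also holds Apoa1. Its lowest, median and highest levels in single barcodes were 0, 315 and 2760.3 CPM in the low tertile, 138, 689 and 5597 in the middle and 0, 1137 and 8563 in the high tertile. The tertiles overlapped widely, while the summed level went from 453 over 1004 to 1764 CPM, a ratio of 3.89 (3.59 to 4.22). Apoc2, which lies on another chromosome (7), went from 548 over 1750.4 to 3788 CPM, a ratio of 6.91 (6.44 to 7.42). Single barcodes of Apoc2 ran over 0, 159 and 5420.3 CPM in the low and 137, 3612 and 9794 CPM in the high tertile, again with overlap. Apob, Acsl5, Slc27a4, Dgat2 and Gpat3 were the other members called, with ratios of 2.20, 2.42, 2.05, 1.79 and 2.19. Mttp (1.57), Plin2 (1.23) and Agpat2 (1.13) were not called. Fabp1, Fabp2, Rbp2 and Apoa1, which helped to choose the barcodes, had ratios of 1.68, 2.23, 1.59 and 2.98.

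Sugar transport and the brush border went the same way. Slc5a1 had lowest, median and highest levels of 0, 368 and 1578 CPM in the low tertile and 225, 1041 and 2650.5 CPM in the high tertile. These ranges overlap. The summed level of the middle tertile, 746 CPM, lay between 413 and 1107, and the high over low ratio was 2.68 (2.45 to 2.93). Of 9 sugar genes 6 were called higher, and of 14 hydrolases 10, with 0 lower in either list. Lactase showed the widest ratio of its list, 8.99 (5.15 to 16.9), from 8.49 to 76.3 CPM. Sis, at 918, 1331 and 1382 CPM, was not called, with a ratio of 1.51 (1.41 to 1.61). For peptides and amino acids 3 of 10 were called higher, Slc15a1 (3.28-fold), Slc6a19 (2.86-fold) and Slc3a1 (50.3 to 100.4 CPM). A list for the middle villus, which overlaps these lists, had 4 of 9 counted genes called higher and 0 lower, with a median of 0.65. The 4 were Lct, Slc2a2, Slc5a1 and Slc15a1, so these genes known for the middle villus were also higher in the high Apoa4 tertile than in the low. Iron transporters Slc11a2, Slc40a1 and Heph were called higher (2.61-, 2.23- and 2.48-fold) and Tfrc lower (69.1 to 25.4 CPM).

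Other gene groups differed in how they followed Apoa4. Of 23 detoxifying enzymes 10 were called higher and 0 lower: Cyp3a25 (7.25-fold), Cyp3a11 (6.90-fold) and Cyp2b10 (4.27-fold) among them. Gsta1 stood at 3722, 4785 and 4084 CPM and was not called. None of 13 fatty acid oxidation genes was called in either direction (median 0.18), nor any of 7 junction genes or 10 immediate-early genes. Of 13 transcription factors only Klf4, known for the differentiated upper villus, was called, at 162, 316 and 423 CPM (2.61-fold, 2.26 to 3.03). Hnf4a stood at 105 and 91.3 CPM in the low and high tertiles and Hnf4g at 97.0 and 97.1, neither called.

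MHC class II genes were higher in the high tertile in 4 of 6 counted members, H2-Aa, H2-Ab1, H2-Eb1 and Cd74, with 0 lower and a median of 1.03. Cd74 levels in single barcodes had their lowest, median and highest values at 0, 840.0 and 5616 CPM in the low tertile and 201, 1833 and 4584 CPM in the high tertile, which overlap. The summed levels were 1074, 1282 and 1908 CPM. H2-Aa stood at 144, 278 and 466 CPM, a ratio of 3.24 (2.79 to 3.77). Guca2b, which encodes the gut hormone uroguanylin, went from 255 to 1195 CPM, and Leap2 from 67.9 to 539 CPM (7.93-fold, 6.50 to 9.75). The remaining leading genes on this side were Pdzk1, Guca2a, Selenop and Prxl2a. Guca2a, at 3.64 and 63.9 CPM, turned to a log2 ratio of −1.34 when the 5 choosing genes had to reach 5% of UMIs.

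Some genes of the lower villus stood on the low side. Of 10 counted lower-villus genes 3 were called lower in the high tertile, Reg3b, Lypd8 and Dmbt1, and 0 higher. Lypd8, a secreted protein that keeps bacteria off the epithelium, had lowest, median and highest levels of 657, 4575 and 14342 CPM in the low tertile and 546, 3032 and 8028 CPM in the high tertile. Those ranges overlap over most of their length, and the summed levels were 5517, 4724 and 3419.8 CPM. Reg3b, a bactericidal lectin, went from 995 to 399.7 CPM, but its low tertile held a barcode at 21074 CPM while its median was 56.0 CPM there and 28.8 CPM in the high tertile. The related Reg3g, at 573, 591 and 750.5 CPM, and Reg1, at 8681, 9269 and 8039 CPM, were not called. Outside that list stood Lgals2, a galectin. Its lowest, median and highest levels were 575, 2154 and 9394 CPM in the low, 108, 1121 and 4536 in the middle and 49.2, 763 and 2743 in the high tertile, with overlap between all tertiles, and its summed level was 3.36-fold lower in the high tertile (3.16 to 3.58). Krt19 (2033 to 828 CPM), the inflammasome adaptor Pycard (1048 to 289 CPM), the mitochondrial chaperone Hspd1 (459.5 to 117 CPM) and Fdps of sterol synthesis (138 to 28.7 CPM) were lower too, with Csrp2, S100a6, Ly6a, C1qbp, Krt7 and Ifitm2 among the leading 10.

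**Figure D4:**
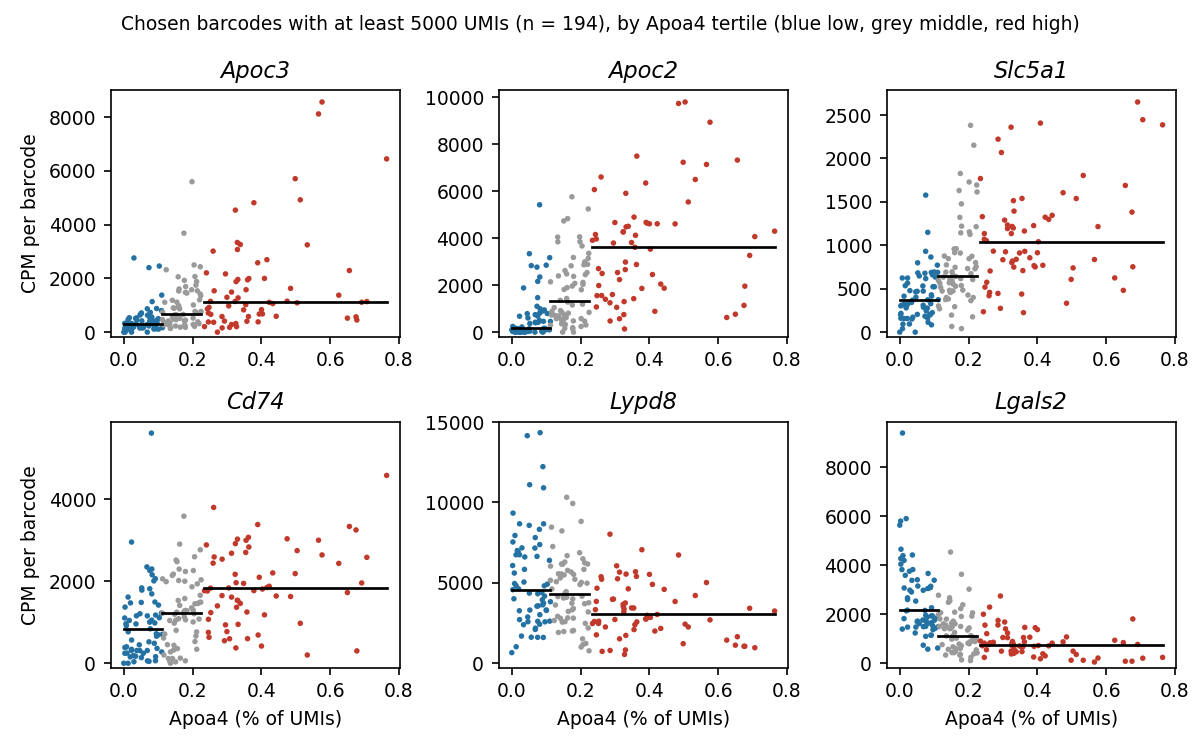
Level of 6 genes (CPM per barcode, linear y axes that differ between panels) against Apoa4 as a percent of UMIs in the 194 deep chosen barcodes of the normal library, coloured by Apoa4 tertile, with black lines at the median of each tertile. Medians of Apoc3, Apoc2, Slc5a1 and Cd74 are highest in the high tertile and those of Lypd8 and Lgals2 lowest there, and the points of neighbouring tertiles overlap in each panel.

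Some genes known for the villus tip were nearly missing. In the high tertile of the deep barcodes Nt5e, Slc28a2, Egfr and Pmp22 had no UMI, against a floor of 1.96 CPM that 3 UMIs would give, and Ada stood at 11.7 CPM (2.42 in the low tertile, under 50 UMIs in all). T cells of the same library had Nt5e at 48.5, Slc28a2 at 37.0 and Ada at 33.6 CPM. Of 7 counted tip genes other than Apoa4, 4 were called higher with Apoa4 (Apob, Apoc3, Klf4 and Krt20) and 0 lower. A split of the deep barcodes by the other tip genes without Apoa4 gave Apoa4 at 866, 1915 and 3233 CPM in its tertiles. It called 77.8% of the 176 higher and 81.2% of the 223 lower genes again, and both splits share barcodes and the genes Apob, Apoc3, Klf4 and Krt20 that enter the tip list.

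Across the 194 deep barcodes, each thinned to 5000 UMIs, Spearman's rho with Apoa4 was 0.67 for Apoa1, which like Apoa4 helped to choose the barcodes. It was 0.63 for Apoc2, 0.53 for Slc5a1, 0.50 for Prap1, 0.48 for Apoc3 and −0.59 for Lgals2. These are descriptions over barcodes of 1 library with a mean of 43.2 thinned UMIs for Apoa1 and 1.32 for Leap2, whose rho of 0.45 rests on few molecules. The values were 0.24 for Sis, 0.28 for Fabp1, also a choosing gene, and −0.06 for Reg3b. Of 4605 counted genes, 4 were above both other tertiles in the middle one, with intervals past 1.2-fold, and 2 (Ano9 and Ifi27l2a) below both. The 4 were Gzma and Ccl5, genes of cytotoxic lymphocytes, with Ccl20 and Serpinb6a. A single barcode held 58.5% of the Ccl20 and 32.2% of the Serpinb6a UMIs of the middle tertile. Of the 601 Gzma UMIs of all deep barcodes, 311 lay in 1 barcode with 2.19% of UMIs from T-cell markers and 32 Epcam UMIs, and 207 in a second one with 1.38% and 27. Both carried UMIs of the Cd3 genes, 45 and 28, and none of Ptprc. Without barcodes that hold over 1% of another cell type's markers, the split called 180 genes higher and 223 lower.

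The same rule found 1 barcode among 8460 in the polyp library (0.0118%, 0.000299 to 0.0658). It held 3625 UMIs, 2.40% from the 5 genes, 4 of Epcam and none of Sis. Over all barcodes that passed the filter the 5 genes stood at 308 CPM in the polyp and 16815 CPM in the normal library. The gap differed widely between them. Apoa4 had 16 against 10712 UMIs, Fabp1 211 against 128600 and Apoa1 332 against 46367. Rbp2 had 12163 against 96777 UMIs (227 against 4420 CPM) and Fabp2 3816 against 85699 (71.1 against 3914 CPM). With 1 library a group, genotype, tissue, mice and preparation cannot be told apart.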

How the data were processed

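The 2 droplet libraries comprise 1 of normal duodenum and 1 of polyps, each from 3 pooled mice. The deposited matrices hold UMI counts per gene and barcode (32285 genes), made with Cell Ranger 3.0.0 on mm10 per the submitters' processing notes, while the matrix headers name version 5.0.0; settings and annotation release are not given in the sources used here. Barcodes were kept at 500 UMIs, 250 genes and at most 25% mitochondrial UMIs, which left 3252 of 9950 and 8460 of 14327. Lists and members were chosen with earlier results of these data known.

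UMIs were summed per set and divided by the total of the set. Levels carry exact Poisson intervals, ratios exact conditional binomial intervals and shares Clopper-Pearson intervals. Genes needed 50 UMIs over both sets. Those called had the near end of the interval past 2-fold between sets, or 1.5-fold between Apoa4 tertiles. Other epithelial barcodes had at least 1 Epcam UMI, none of Ptprc and under 2% acinar UMIs. T cells had at least 2 UMIs of Cd3 genes and none of Epcam. Named genes were, among called genes with a UMI in at least 10% of the barcodes of the higher set, the 10 with the interval farthest from 1 in each direction, up to 4 list members with the most UMIs and members against their list, with mitochondrial, ribosomal, haemoglobin, immunoglobulin, predicted, sex-linked and choosing genes left out of the ranking; other named genes were chosen after their values were seen. Doublets were scored with scrublet (scanpy 1.11.5) and left in. Code (Python 3.11.15, numpy 2.4.6, scipy 1.17.1) for the ratio intervals was tested on simulated data. Thinning code was checked on barcodes of the normal library, for totals and for entries above their input. No clustering was run. Alternatives were other filters, thresholds, totals, weights and splits; those at 5000 UMIs, relative to the median gene, without barcodes found in both libraries, without comparator barcodes over 1% plasma cell markers, and all for the deep split were chosen after seeing the data.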

Additional observations from a re-analysis of the deposited data

Results flagged for a closer look

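Signal of the choosing genes was also present in barcodes that the mitochondrial limit left out. Of 4549 barcodes of the normal library with at least 500 UMIs and 250 genes but more than 25% mitochondrial UMIs, 137 held at least 2% of UMIs from Fabp1, Fabp2, Apoa1, Apoa4 and Rbp2, 3.01% (Clopper-Pearson 95% interval 2.53 to 3.55). For a count of 0, a floor of 3 barcodes, which is not a Clopper-Pearson bound, would have stood at 0.0659%. These 137 barcodes had a median of 5584 UMIs, 45.0% mitochondrial UMIs and 2.73% from the choosing genes. They are outside every comparison of the report, and those with at most 50% mitochondrial UMIs entered only the alternative with that limit.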

How the results depend on the processing

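The chosen share of barcodes (16.4%) was 24.4% and 6.40% with the 5 genes at 1% and 5% of UMIs, 12.8% and 22.8% from 1000 and 5000 UMIs, and 14.6% and 12.1% at mitochondrial limits of 10% and 50%. Relative to the median gene 1776 genes were higher than in all others, and 1237 higher and 1204 lower than in other epithelium. Averaging barcodes gave 3992 and 3407 lower genes in these comparisons, by the ratio alone since such means carry no counting interval. For the Apoa4 split of all barcodes the 291 higher genes became 94 (5% of UMIs), 193 (1000 UMIs), 176 (5000 UMIs), 1528 (averages), 153 (relative to the median gene), 97 (split after thinning) and 140 (split at the median). Its 114 lower genes became 235 (1% of UMIs), 244 (1000 UMIs), 223 (5000 UMIs), 317 (mitochondrial limit of 50%), 481 (averages), 303 (no minimum of 50 UMIs), 186 (relative to the median gene), 261 (split by other tip genes) and 191 (split at the median). For the deep split, 176 higher and 223 lower genes became 625 and 728 (averages), 86 and 66 (5% of UMIs) and 113 and 144 (split at the median), and at 1% of UMIs 426 were lower. Among the 20 ranked genes of each comparison, which were ranked for intervals far from 1, 0 turned direction against all others or other epithelium. In the Apoa4 split of all barcodes Cela2a (0.19), Cpa1 (0.20), Pnlip (0.042), Prss2 (0.0010) and Clps (0.19) turned among barcodes of 5000 UMIs. In the deep split Guca2a (log2 ratio −1.34) turned at 5% of UMIs. The causes were not tested. No paired analysis was possible because each group is 1 library, and for the same reason no replicate could be left out. With 197 barcodes of few UMIs in the low tertile of the full split, 3995 genes reached 50 UMIs, against 4605 in the deep split.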
